A study of Homo sapiens with 8 samples.

Results

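T98 and U87 are established human glioblastoma cell lines, and the comparison described here sets their messenger RNA levels side by side 72 h after transfection with a control siRNA. It rests on 4 of the 8 RNA-seq libraries of the series, 2 from T98 and 2 from U87, chosen by the labels for cell line and siRNA alone. The other 4 libraries are the same lines, 2 libraries each, 72 h after transfection with an siRNA that silences the kinase LKB1 (gene STK11). They enter only the estimate of spread and a repeat of the comparison of the lines. All 8 cultures received siRNA with the lipid reagent RNAiMAX, so every value is from a culture exposed to both. The share of cells that took up siRNA is not known here. Each group stands for 1 cell line grown in culture without the other cells of a tumour. A gene was tested where its value reached 10 in at least 2 of the 4 control libraries, which kept 13638 of 18787 gene symbols.

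Glioblastoma is the most malignant tumour of the astrocyte lineage, and its long-passaged lines differ in which tumour suppressors they have lost. U87 is known for a deletion that takes out CDKN2A, and T98 for resistance to the alkylating drug temozolomide. NRF2 (NFE2L2) switches on genes for glutathione and NADPH, and CIITA switches on the MHC class II genes that present peptides to T cells. These programmes, with cytokines, growth factors and extracellular matrix, order the account below.

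The values are the authors' normalised read counts, scaled to 1 common library size. For every gene, the T98 values are given as lane 2 then lane 4, and the U87 values as lane 2 then lane 5, the sequencing lanes named in the deposited column headers. The whole reads behind the values came to 30820240 and 32544712 in T98 and to 30944466 and 32190926 in U87. Differences are T98 minus U87 on the log2(value + 1) scale with their standard error, which understates the change of low genes, and adjusted p is from limma-trend with Benjamini-Hochberg adjustment over all 13638 genes. The labels do not say that the 2 libraries of a group came from separate cultures, so p-values measure the spread between these libraries, which may be technical. The lanes other than lane 2 differ between the lines, so part of any difference outside lane 2 cannot be told apart from the lane. Each line had 1 control library per lane, so lane names below mark libraries. Within a line, an effect of lane cannot be told apart from one of the library or culture. The library kit does not mark strand, so reads of overlapping genes on opposite strands cannot be told apart, and 54 genes held the same reads as another gene in all libraries.

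The lines differed over much of the transcriptome. Of the 13638 genes, 2602 (19.1%) were higher in T98 and 2759 (20.2%) were lower, 39.3% in all, at an adjusted p under 0.05. Of these 5361 genes, 4222 (78.8%) differed by at least 2-fold, 2343 (43.7%) by at least 4-fold and 1176 (21.9%) by at least 16-fold. All 5361 had the same sign on lane 2 and between lanes 4 and 5, and in none did the libraries of the lines overlap, against 72.2% of all genes tested without overlap. The median log2 difference over all genes was 0.005. The counts of gene lists below stand beside the shares of all genes tested, 19.1% higher and 20.2% lower. Those shares are of the full fit. List counts with a control library left out have no such share beside them, since the counts over all genes fell then as well. Of the genes tested, 449 reached 10 in both T98 libraries and neither U87 library, and 398 of them passed, all as higher. The reverse held for 693 genes, of which 601 passed, all as lower. The filter left such genes only 1 side to pass on, in lists as well. Among the tested members, they were 3 of 12 MHC class II genes, 6 of 13 chemokines and 6 of 21 imprinted genes. They were also 3 of 7 HOXC genes, 4 of 8 HOXA genes and 5 of 7 endothelial markers. The standard deviation of the log2 differences between the lines was 2.26 on lane 2 and 2.16 on the other lanes, against 0.80 between the 2 libraries of T98 and of U87. The counts fell without any 1 of the 4 control libraries, and most without a lane 2 library. Without that of T98 they fell to 1491 higher and 1735 lower, and without that of U87 to 1584 higher and 1739 lower. A lane term within each line was fitted to the control and LKB1 siRNA libraries together, so that the difference is the fitted one on lane 2. With it, the counts rose to 4317 higher and 4475 lower. In cultured cells as in tissue, a lower value can be fewer cells that express a gene or less RNA per cell, which these libraries cannot tell apart.

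**Figure D1:**
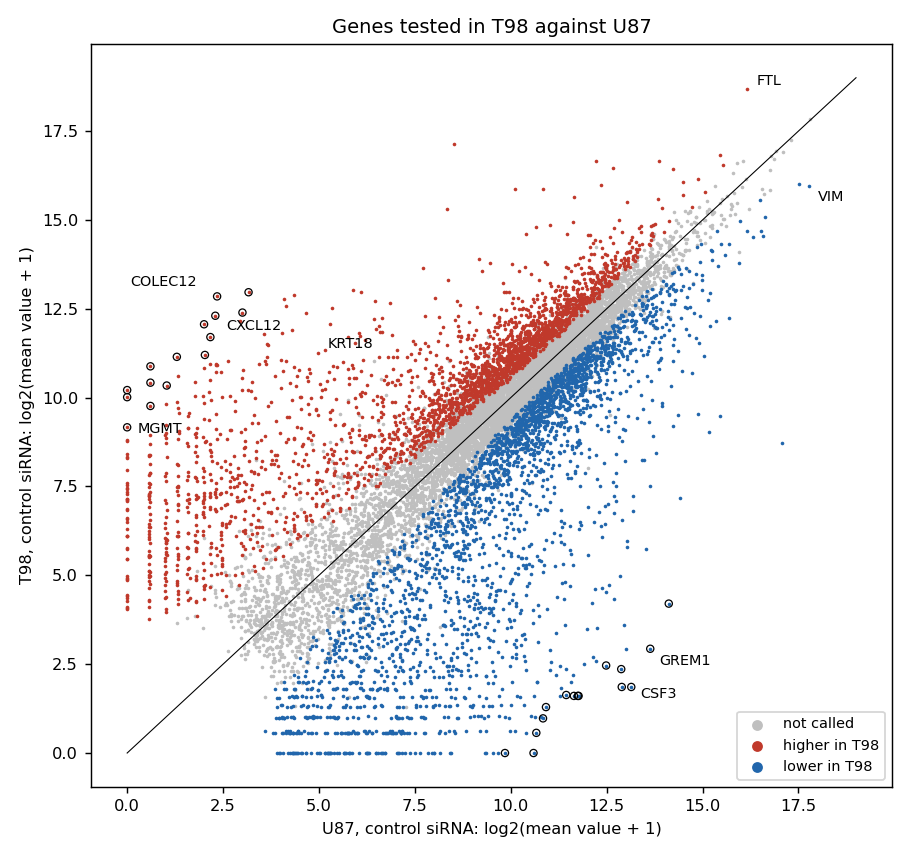
Mean normalised value of each gene in U87 (x axis) and T98 (y axis), both as log2(mean value + 1), under control siRNA. Red points passed as higher in T98, blue points as lower and grey points did not pass; rings mark the 15 largest differences in each direction, which lie along the axes, and the diagonal marks equal levels.

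Among the most abundant transcripts per kilobase of transcript, the lines shared GAPDH and ACTB and differed in what stood first. In T98, FTL, the light chain of the iron store ferritin, led with a mean of 484600 per kilobase, against 84030 in U87. The FTL values themselves were 369029 and 479050 in T98 and 83985 and 63068 in U87, without overlap (log2 difference 2.53 ± 0.32, adjusted p = 0.00102). In U87, VIM, the intermediate filament protein vimentin, led with 104900 per kilobase. MT2A, a metal-binding metallothionein, had 88280 per kilobase in U87. Its values were 5106 and 3237 in T98 and 34674 and 39833 in U87, so every U87 library lay above both T98 libraries (log2 difference -3.19 ± 0.47, adjusted p = 0.00188). PRDX1, a peroxidase, and AKR1C1, an aldo-keto reductase, were among the 10 highest transcripts per kilobase in T98, with 65510 and 64510. AKR1C1 is one of a family of near-identical genes, so its reads are uncertain.

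The largest differences were between genes that 1 line expressed and the other barely read. Those highest in T98 included MTAP and CDKN2B on chromosome 9, the chemokine CXCL12, the scavenger receptor COLEC12, the growth factor PDGFD and the neural transcription factor SOX11. Those highest in U87 included the cytokines CSF3, IL36B and IL36RN, the BMP antagonist GREM1, the EGF receptor ligand EREG, the hyaluronan synthase HAS1 and the decoy receptor IL13RA2. COLEC12 had values of 7990.5 and 6753 in T98 and 6.3 and 1.9 in U87 (log2 difference 10.65 ± 0.86, adjusted p = 0.000151). CXCL12 had 3757 and 6352 in T98 and 1.1 and 6.7 in U87 (log2 difference 10.24 ± 0.65, adjusted p = 7.47e-05), and PDGFD had 5518 and 10473 in T98 and 6.4 and 9.6 in U87 (log2 difference 9.75 ± 0.50, adjusted p = 4.34e-05). In all 3, both U87 libraries were below 10 and far below both T98 libraries. GREM1 had 9.5 and 3.7 in T98 and 9009 and 16459 in U87 (log2 difference -10.75 ± 0.49, adjusted p = 4.15e-05). CSF3 had 5.3 and 0 in T98 and 3739.7 and 14329 in U87 (log2 difference -11.52 ± 1.18, adjusted p = 0.000389), and IL36B had 5.3 and 0 in T98 and 7881 and 7334 in U87 (log2 difference -11.57 ± 1.07, adjusted p = 0.000253). The CSF3 libraries of U87 stood far apart, while those of IL36B lay close together, and both genes were at or near 0 in T98. IL13RA2 was read once in all of T98 and was 3326-fold lower in T98, with a 95% counting interval of 597 to 131400. Genes with 0 reads in 1 line have only a bound, taken from 3 reads over that line. KCTD15 was at least 792-fold higher in T98, and the cytokine-like CYTL1 was at least 382-fold higher in T98. MFAP2, a microfibril protein, was at least 1017-fold lower in T98, and UGT8, the enzyme that makes galactosylceramide, was at least 619.7-fold lower in T98.

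**Figure D2:**
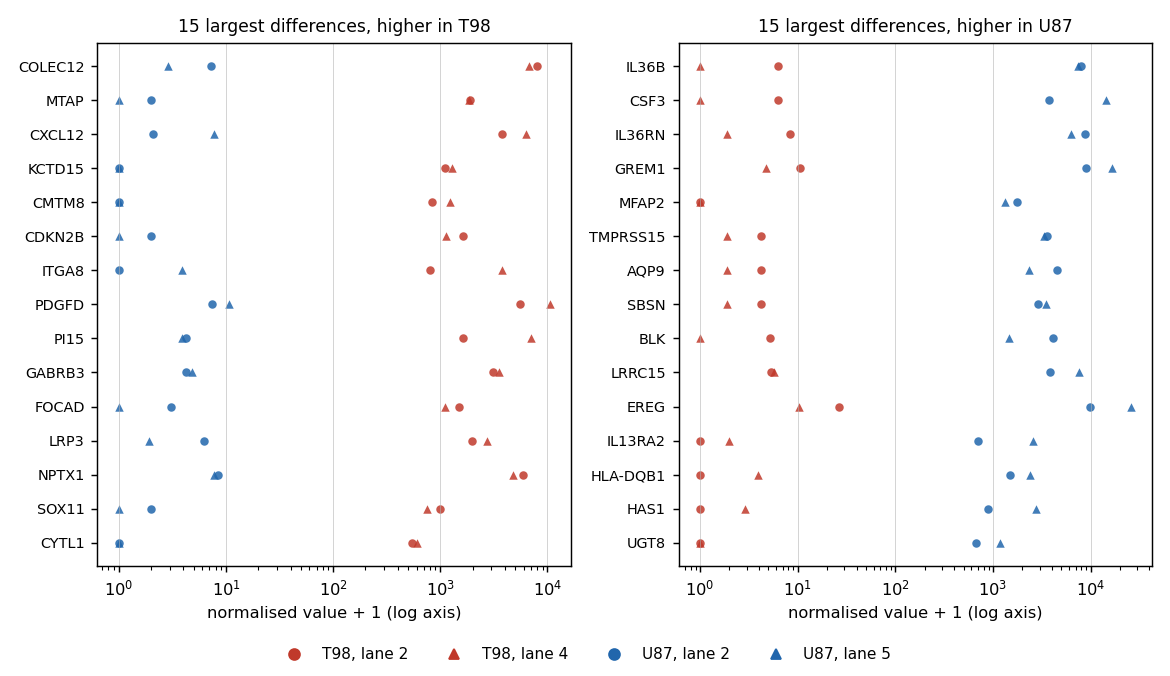
The 15 genes with the largest differences in each direction; the x axis is the normalised value plus 1 on a log axis, red marks T98 and blue U87, circles are lane 2 and triangles the other lane. In every row the red and blue points lie far apart, while the 2 points of 1 line can differ, as for ITGA8 at 803 and 3730 in T98.

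A mean of 200 or more in 1 line and values under 10 in both libraries of the other held for 130 genes in T98 and 177 in U87. Of these, 9 and 13 had 0 reads in the opposite line. A further 46 and 72 genes had their highest opposite value between 10 and 20, just outside that limit. Summed over the 130 genes, the U87 libraries held 0.334% of the T98 reads on lane 2 and 0.334% on the other lanes. Over the 177 genes, the T98 libraries held 0.249% and 0.263% of the U87 reads. These low reads were a like share of the opposite line on both lanes, and their part in the values near 0 was not tested. Under LKB1 siRNA, 93 of the 130 genes and 137 of the 177 met the same limits.

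Chromosome 9p21 held the tumour suppressors CDKN2A and CDKN2B, which encode inhibitors of CDK4 and CDK6, beside MTAP, the enzyme that salvages methylthioadenosine. Of the 8 genes tested in that list, 7 were higher in T98 and none was lower, with a median log2 difference of 7.06. Those 7 passed the filter only through their T98 values, so none of them could be lower. CDKN2B (hg19 chr9:22002902-22009312) had values of 1619 and 1120.2 in T98 and 1 and 0 in U87 and was 2705-fold higher in T98, with a 95% counting interval of 485 to 106900. MTAP (chr9:21802635-21865969) had 1903 and 1865 in T98 and 1 and 0 in U87 and was 3757-fold higher in T98, with a 95% counting interval of 674 to 148400. U87 had 1 read of each gene in all. CDKN2A (chr9:21967751-21994490) had 36.2 and 22.7 in T98 and 0 in both U87 libraries, so it was low in T98 as well, and was at least 19.4-fold higher in T98. DMRTA1, toward the centromere, was low in T98 too, with 24.4 and 12.3 in T98 and 0 in both U87 libraries, and its call was lost without T98 lane 2 (adjusted p = 0.173), T98 lane 4 (adjusted p = 0.0895), U87 lane 2 (adjusted p = 0.123) or U87 lane 5 (adjusted p = 0.107). On the other side, KLHL9 had 972 and 1116 in T98 and 4.2 and 4.8 in U87 (log2 difference 7.57 ± 0.67, adjusted p = 0.000213) and FOCAD had 1477 and 1113 in T98 and 2.1 and 0 in U87. MLLT3, the tested gene next to FOCAD on that side, had a mean of 296.1 in T98 and 3.65 in U87. The run from MLLT3 to DMRTA1 was thus at or near 0 reads in U87, while ELAVL2 beyond DMRTA1 had 25.6 and 33.3 in T98 and 3.3 and 25 in U87 and did not pass (adjusted p = 0.378).

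Genes of the cell division cycle leaned towards T98. Of 32 genes of G1/S and replication, 13 were higher in T98 and 2 were lower (median log2 difference 0.70), and of 32 genes of G2/M and mitosis, 12 were higher and none lower (median 0.63). GINS1, part of the replicative helicase, had 3173 and 2452 in T98 and 554 and 534 in U87 (log2 difference 2.36 ± 0.23, adjusted p = 0.000296). PCNA, the sliding clamp, had 12522 and 10561 in T98 and 4581 and 3746 in U87 (log2 difference 1.47 ± 0.21, adjusted p = 0.00176). KIF2C, a kinesin of the centromere, had 8896 and 7524 in T98 and 2796 and 2697 in U87 (log2 difference 1.57 ± 0.19, adjusted p = 0.000744), and PRC1, which bundles the spindle midzone, had 5216 and 5625 in T98 and 2872 and 2810.4 in U87 (log2 difference 0.93 ± 0.15, adjusted p = 0.00329). Each of these had T98 above U87 in both libraries. MCM6 was 1 of the 2 lower members, with 3831 and 2723 in T98 and 5838 and 5632 in U87, but its call was lost without T98 lane 4 (adjusted p = 0.114), U87 lane 2 (adjusted p = 0.0918) or U87 lane 5 (adjusted p = 0.0674). These counts fell with single libraries left out, as did the counts over all genes tested. With a library left out, the lean by count is thus not set against all genes. With T98 lane 2 left out, 3 G1/S genes were higher and 2 lower, and 5 G2/M genes were higher. Without U87 lane 2, 2 G1/S genes were higher and none lower, and 7 G2/M genes were higher. Without T98 lane 4, 8 G1/S genes were higher and 1 lower. Of 14 G1 regulators, 7 were higher in T98 and 2 lower, or 3 and 3 without T98 lane 2 and 4 and 2 without U87 lane 5. CDK6 had 22527 and 11193 in T98 and 4721 and 3954 in U87 (log2 difference 1.88 ± 0.34, adjusted p = 0.00463), CDKN2D, which encodes p19, had 116 and 168 in T98 and 659 and 653 in U87 (log2 difference -2.22 ± 0.34, adjusted p = 0.00227), and CDKN2B was as above. CDKN1A, which encodes the inhibitor p21, had 1059 and 2405 in T98 and 23564 and 21258 in U87 (log2 difference -3.81 ± 0.37, adjusted p = 0.000322), far below U87 in both T98 libraries.

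MGMT encodes the enzyme that removes methyl groups from guanine and so reverses temozolomide damage. It had 375 and 523 in T98 and 0 in both U87 libraries, and so was at least 302-fold higher in T98 (adjusted p = 7.54e-05). Under LKB1 siRNA its values were 394 and 531 in T98 and 0 and 1.2 in U87. MGMT was thus read in all 4 T98 libraries, while the 4 U87 libraries held 1 read between them. Of 15 genes of direct, base excision and mismatch repair tested, 6 were higher in T98 and none was lower, with a median log2 difference of 0.65. PARP1, which senses DNA strand breaks, had 12532 and 11244 in T98 and 3195 and 5564 in U87 (log2 difference 1.49 ± 0.32, adjusted p = 0.00921), a call lost without T98 lane 2 (adjusted p = 0.0532). The 6 fell to 2 without T98 lane 2 and to 3 without U87 lane 2.

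NRF2 targets were higher in T98 as a list. Of 29 tested, 22 were higher and 1 was lower, with a median log2 difference of 2.32, and leaving out 1 library at a time gave 19 to 23 higher. The list covers glutathione synthesis, NADPH supply and detoxification. GCLM, a subunit of the enzyme that starts glutathione synthesis, had 14505 and 11795 in T98 and 1010.4 and 1625 in U87 (log2 difference 3.35 ± 0.26, adjusted p = 0.000127), and its partner GCLC had 13621 and 15243 in T98 and 1432 and 2356 in U87 (log2 difference 2.97 ± 0.33, adjusted p = 0.000558). PGD and TALDO1, of the pentose phosphate pathway that yields NADPH, had 48333 and 45461 in T98 and 8429 and 8256 in U87 (log2 difference 2.49 ± 0.17, adjusted p = 9.24e-05) and 25312 and 23489.6 in T98 and 4093 and 4248 in U87 (log2 difference 2.55 ± 0.17, adjusted p = 9.23e-05). In all 4 genes the T98 libraries lay close to each other and far above both U87 libraries. EPHX1, an epoxide hydrolase, had 20800.4 and 29433 in T98 and 1330.3 and 1371 in U87 (log2 difference 4.20 ± 0.21, adjusted p = 4.34e-05). AKR1B10, AKR1C1, AKR1C2 and AKR1C3 passed as higher as well, with log2 differences from 3.78 (AKR1C1) to 5.0 (AKR1B10), but these aldo-keto reductases share sequence and are uncertain. NFE2L2 itself had 19044 and 22921 in T98 and 4462 and 4585 in U87 (log2 difference 2.21 ± 0.19, adjusted p = 0.000198). The cystine carrier SLC7A11 had 34473 and 27924 in T98 and 454 and 5834 in U87, so the U87 libraries stood far apart by lane, and its call as higher in T98 was lost without T98 lane 2 (adjusted p = 0.122), T98 lane 4 (adjusted p = 0.089) or U87 lane 2 (adjusted p = 0.146) and with edgeR (adjusted p = 0.0519) and with DESeq2 (adjusted p = 0.0604). CBR1, a carbonyl reductase, was the 1 lower member, with 1869 and 2501 in T98 and 4472 and 4019.9 in U87 (log2 difference -0.97 ± 0.19, adjusted p = 0.00694).

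The core of the antioxidant response element that NRF2 binds, TGACNNNGC on either strand, lay in the RefSeq promoter window of 6 of 21 matched NRF2 targets. That window runs from 250 bases before to 50 after a gene's start, on GRCh38.p14, and 13.3% of 35116 such windows and 14.5% of the 11039 matched to tested genes hold the core. Stretches upstream of GCLM and TXNRD1, both higher in T98 (TXNRD1 at 68331 and 67639.6 in T98 and 11869 and 34442 in U87, a call lost without T98 lane 2 (adjusted p = 0.132), T98 lane 4 (adjusted p = 0.114), T98 LKB1 siRNA lane 2 (adjusted p = 0.0584), T98 LKB1 siRNA lane 4 (adjusted p = 0.0576) or U87 lane 2 (adjusted p = 0.206) and with edgeR (adjusted p = 0.0579)), are shown as examples of a match before the start, in capitals, 5′ to 3′ on the gene's strand. The match begins at -34 and -102 from the start, and the stretches lie at chr1:93909431-93909494 (minus strand) and chr12:104286900-104286968 (plus strand).
GCLM: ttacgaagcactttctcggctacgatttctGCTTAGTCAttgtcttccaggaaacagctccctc
TXNRD1: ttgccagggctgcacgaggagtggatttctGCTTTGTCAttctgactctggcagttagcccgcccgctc
Both matches read on the opposite strand from the gene. The other members with a match were PGD and PIR, which were higher in T98, KEAP1, which did not pass, and CBR1, the member lower in T98. Over all matched genes, the core was in 12.9% of the windows of genes higher in T98 and in 15.9% of those lower. A match is a run of letters only, and no binding was measured.

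Aldehyde dehydrogenases, which oxidise aldehydes and serve as stem cell markers, split by member. Of 14 tested, 7 were higher in T98 and 2 were lower. ALDH1A1 had 1046 and 2493 in T98 and 9.5 and 4.7 in U87 (log2 difference 7.71 ± 0.62, adjusted p = 0.000152), and ALDH3A1 had 1139.7 and 2541 in T98 and 2.1 and 3.8 in U87 (log2 difference 8.77 ± 0.73, adjusted p = 0.000166). ALDH1A3 was the reverse, with 1254 and 1308 in T98 and 8933 and 28144 in U87 (log2 difference -3.63 ± 0.52, adjusted p = 0.00178). The retinaldehyde-oxidising members ALDH1A1 and ALDH1A3 thus took opposite sides. Without T98 lane 2, 4 were higher and 2 lower.

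MHC class II genes were lower in T98. Of 12 tested, 11 were lower and none was higher, with a median log2 difference of -5.52, and leaving out 1 library at a time gave 8 to 11 lower. CD74, the invariant chain that guides class II molecules to the endosome, had 38.5 and 65.6 in T98 and 8092 and 15312 in U87 (log2 difference -7.76 ± 0.41, adjusted p = 4.48e-05). HLA-DRA, the shared DR alpha chain, had 71.5 and 106 in T98 and 2860.2 and 6403 in U87 (log2 difference -5.60 ± 0.51, adjusted p = 0.000242), and HLA-DRB1, its beta chain, had 45.9 and 77 in T98 and 7296 and 9285 in U87 (log2 difference -7.09 ± 0.35, adjusted p = 4.34e-05). HLA-DQA1 had 0 in both T98 libraries and 513 and 764 in U87 and was at least 428-fold lower in T98. U87 was high and T98 low in each, with no overlap. The alleles of these genes differ between people and HLA-DRB1 and HLA-DRB5 are near copies, so their reads are uncertain. CIITA, their master activator, had 100.3 and 189 in T98 and 326 and 639.7 in U87 (log2 difference -1.72 ± 0.45, adjusted p = 0.0197), a call lost without T98 lane 2 (adjusted p = 0.113) or U87 lane 5 (adjusted p = 0.105). HLA-DMB was the member that did not pass, with 97.3 and 632 in T98 and 259 and 368 in U87 (adjusted p = 0.805).

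The Y box, the promoter letters CTNATTGG on either strand, lay in the window of 5 of 10 matched class II members, against 6.81% of all windows and 8.78% of those matched to tested genes. The 5 are shown, with the match in capitals and its position from the start, because their genes were all lower in T98, with HLA-DMA at 99.4 and 384 in T98 and 1047 and 905 in U87 and its call lost without T98 lane 2 (adjusted p = 0.0666), U87 lane 2 (adjusted p = 0.0834) or U87 lane 5 (adjusted p = 0.0553). The match begins at -49 in HLA-DRB1, -93 in HLA-DRB5, -71 in HLA-DQA1, -91 in HLA-DQB1 and -82 in HLA-DMA. The stretches lie, in this order, at chr6:32589875-32589942 (minus strand), chr6:32530358-32530425 (minus strand), chr6:32637290-32637357 (plus strand), chr6:32666726-32666793 (minus strand) and chr6:32953157-32953224 (minus strand) of GRCh38.p14.
HLA-DRB1: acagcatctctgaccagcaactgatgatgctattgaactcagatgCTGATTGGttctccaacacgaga
HLA-DRB5: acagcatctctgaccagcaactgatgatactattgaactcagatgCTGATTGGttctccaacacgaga
HLA-DQA1: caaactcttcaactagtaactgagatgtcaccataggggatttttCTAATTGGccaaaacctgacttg
HLA-DQB1: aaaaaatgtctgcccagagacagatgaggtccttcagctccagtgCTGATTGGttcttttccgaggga
HLA-DMA: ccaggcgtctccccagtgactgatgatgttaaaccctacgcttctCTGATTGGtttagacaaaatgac
These are the reference sequence, not that of the cell lines. The matched members without a Y box were HLA-DPA1, HLA-DPB1, HLA-DOA and CD74, also lower in T98, and HLA-DMB, which did not pass. Over all matched genes, the Y box was in 10.3% of the windows of genes higher in T98 and in 6.83% of those lower. Binding was not measured.

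MHC class I genes did not follow class II. Of 19 tested, 6 were higher in T98 and 5 were lower, with a median log2 difference of 0.04 (0.10 with quantile normalization). HLA-B had 15970.4 and 19523 in T98 and 43316 and 34191 in U87 (log2 difference -1.12 ± 0.22, adjusted p = 0.00617), and NLRC5, the class I activator, had 772 and 895 in T98 and 2324 and 2535 in U87 (log2 difference -1.54 ± 0.18, adjusted p = 0.000695). PSMB9, a subunit of the immunoproteasome, was higher in T98, with 2099 and 2309.9 in T98 and 976 and 730.2 in U87 (log2 difference 1.38 ± 0.21, adjusted p = 0.00224). The cell surface chain and the proteasome subunit thus lay on opposite sides. With T98 lane 2 left out, 1 member was higher and 2 were lower. Without U87 lane 2 it was 4 and 2, and without U87 lane 5 it was 1 and 3.

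Interferon-stimulated genes leaned higher in T98. Of 36 tested, 16 were higher and 2 were lower, with a median log2 difference of 1.01. GBP1, a guanylate-binding protein, had 3139 and 2847 in T98 and 696 and 603 in U87 (log2 difference 2.20 ± 0.19, adjusted p = 0.000203), and the transcription factor IRF1 had 3476 and 3436 in T98 and 1106 and 933 in U87 (log2 difference 1.76 ± 0.18, adjusted p = 0.000398). IFITM3, which blocks virus entry, had 6102 and 10055 in T98 and 1331 and 639.5 in U87 (log2 difference 3.08 ± 0.41, adjusted p = 0.00127), and BST2, which tethers virus to the membrane, had 2415 and 4385 in T98 and 125 and 7.5 in U87 (log2 difference 6.64 ± 1.38, adjusted p = 0.00818). T98 was higher in all 4, and for BST2 the U87 libraries stood far apart. HERC5, a ligase for the ubiquitin-like ISG15, was 1 of the 2 lower members, with 227 and 248 in T98 and 856 and 781 in U87 (log2 difference -1.78 ± 0.27, adjusted p = 0.00219). The other was OASL, with 21.6 and 222 in T98 and 1046 and 1261 in U87, and its call was lost without T98 lane 2 (adjusted p = 0.108), U87 lane 2 (adjusted p = 0.0754) or U87 lane 5 (adjusted p = 0.078). The IFITM genes share sequence and are uncertain. Without T98 lane 4, 10 were higher and 2 lower, and without U87 lane 2, 10 were higher and 1 lower.

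**Figure D3:**
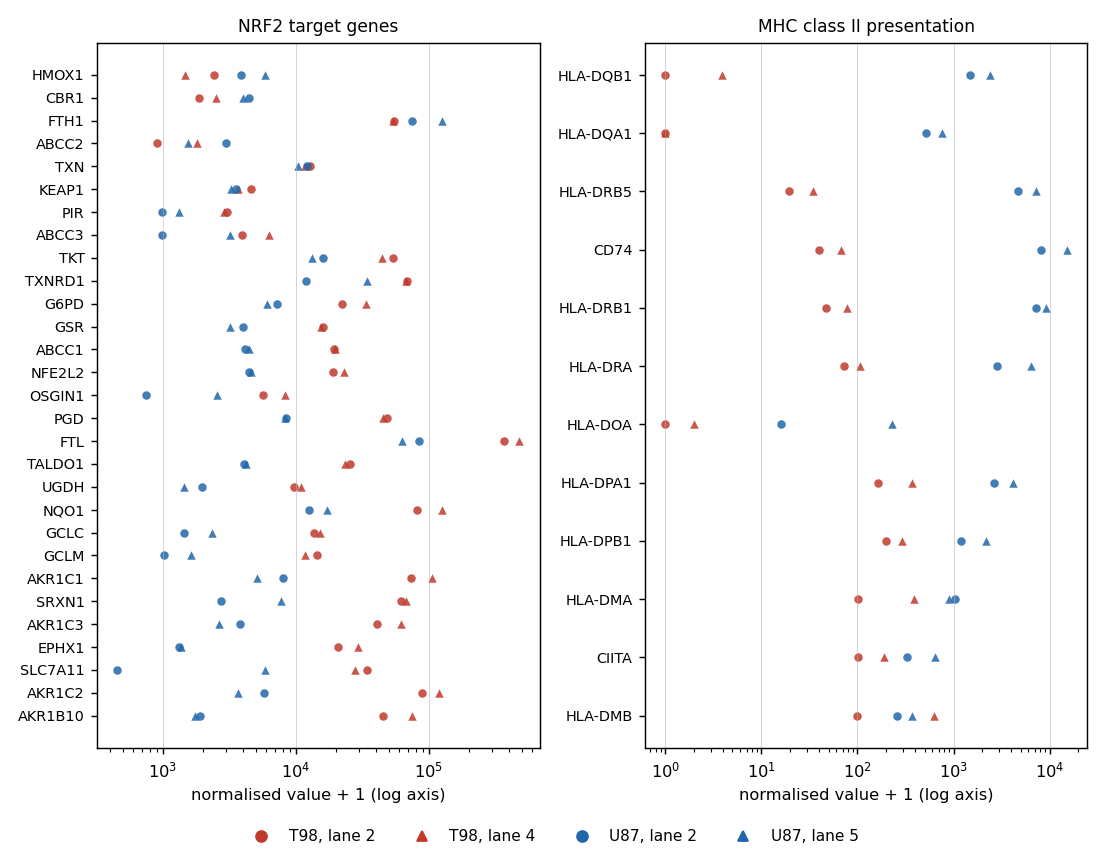
Values of list members in the 4 control libraries, as normalised value plus 1 on a log x axis; red marks T98 and blue U87, circles are lane 2 and triangles the other lane. T98 lies to the left for MHC class II genes and to the right for NRF2 targets, with points of the same line closer together than the lines are for most genes.

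Inflammatory cytokines were mostly higher in U87. Of 20 interleukins and related cytokines tested, 11 were lower in T98 and 3 were higher, with a median log2 difference of -2.02, or 9 and 1 without T98 lane 4. IL1B, which starts inflammatory signalling, had 7.4 and 5.7 in T98 and 1607 and 14767 in U87 (log2 difference -9.34 ± 1.33, adjusted p = 0.00169), and its relative IL1A had 26.5 and 6.5 in T98 and 333 and 1904 in U87 (log2 difference -5.79 ± 1.16, adjusted p = 0.00721). Both were far higher on lane 5 than on lane 2 in U87, and both U87 libraries lay above T98. IL11 had 10.6 and 7.6 in T98 and 321 and 529 in U87 (log2 difference -5.37 ± 0.45, adjusted p = 0.000174), and IL8, which attracts neutrophils, is given below with the chemokines. IL1RN, the natural antagonist of the IL1 receptor, was 738-fold lower in T98, with a 95% counting interval of 132 to 29210, so the antagonist lay on the same side as the agonists. CSF1, which drives macrophage growth, was the reverse, with 27632 and 19722 in T98 and 7747 and 4664 in U87 (log2 difference 1.96 ± 0.37, adjusted p = 0.00542). TNFSF10, the death ligand TRAIL, had 302 and 1316 in T98 and 24.3 and 34.4 in U87 (log2 difference 4.40 ± 0.95, adjusted p = 0.00967), a call lost without T98 lane 4 (adjusted p = 0.0527).

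Chemokines differed in both directions. Of 13 tested, 5 were higher in T98 and 7 were lower. CXCL1, CXCL2, CXCL3, CXCL5 and IL8, which act on CXCR2 and attract neutrophils, were all lower in T98, as were CXCL14 and CCL20. IL8 had 454 and 241 in T98 and 6246 and 22241 in U87 (log2 difference -5.15 ± 0.72, adjusted p = 0.00154), CXCL2 had 15.9 and 5.6 in T98 and 562 and 1499.9 in U87 (log2 difference -6.44 ± 0.83, adjusted p = 0.00106), and CXCL1 had 3.2 and 0 in T98 and 389.6 and 389.5 in U87 and was 258-fold lower in T98, with a 95% counting interval of 88.1 to 1256. The call was lost without T98 lane 4 (adjusted p = 0.181), T98 LKB1 siRNA lane 2 (adjusted p = 0.0507), U87 lane 2 (adjusted p = 0.0767) or U87 lane 5 (adjusted p = 0.156) and with edgeR (adjusted p = 0.0653) for CXCL3, lost without T98 lane 2 (adjusted p = 0.0942) or U87 lane 5 (adjusted p = 0.0937) for CXCL5 and lost without T98 lane 2 (adjusted p = 0.246), T98 LKB1 siRNA lane 2 (adjusted p = 0.0658), T98 LKB1 siRNA lane 4 (adjusted p = 0.0655) or U87 lane 5 (adjusted p = 0.221) and with edgeR (adjusted p = 0.0661) for CXCL14. Those higher in T98 were CXCL12, CXCL10, CXCL16, CX3CL1 and CCL2, which act on other receptors. CX3CL1, a membrane-anchored chemokine, had 163 and 746 in T98 and 6.3 and 3.8 in U87 (log2 difference 5.89 ± 0.83, adjusted p = 0.00157), and CCL2, which attracts monocytes, had 1062 and 794 in T98 and 332 and 180.3 in U87 (log2 difference 1.90 ± 0.37, adjusted p = 0.00624). Without U87 lane 5, 5 were higher and 4 lower.

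The CXCR2 ligands lie together on chromosome 4, and they share a promoter letter run. The NF-kB site core GGAATTTCC, read on either strand, was in 6 of 10 matched chemokine windows, against 0.461% of all windows and 0.453% of those matched to tested genes. It was in the window of 1 of 14 matched members of the cytokine list, IL8, which is in both lists. The 6 are shown because 5 of them belong to the genes lower in T98 and 1, CXCL10, to a gene higher in T98. Capitals mark the match, which begins at -78, -77, -78, -90, -91 and -176 from the start in this order. The stretches lie at chr4:73869285-73869353 (plus strand), chr4:74099234-74099302 (minus strand), chr4:74038729-74038797 (minus strand), chr4:73998729-73998797 (minus strand), chr4:73740448-73740516 (plus strand) and chr4:76023635-76023703 (minus strand) of GRCh38.p14, with IL8 listed by RefSeq under a newer symbol.
CXCL1: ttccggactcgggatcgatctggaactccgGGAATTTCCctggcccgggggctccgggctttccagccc
CXCL2: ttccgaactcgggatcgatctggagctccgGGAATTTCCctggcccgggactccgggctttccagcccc
CXCL3: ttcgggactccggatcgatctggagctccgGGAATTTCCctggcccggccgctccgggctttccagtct
CXCL5: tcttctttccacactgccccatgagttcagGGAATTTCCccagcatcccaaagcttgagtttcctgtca
IL8: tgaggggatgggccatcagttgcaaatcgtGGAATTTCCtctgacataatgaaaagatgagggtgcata
CXCL10: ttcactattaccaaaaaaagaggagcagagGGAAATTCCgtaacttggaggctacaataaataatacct
The flanks of CXCL1, CXCL2 and CXCL3 are near copies of each other. They lie before the start, so their likeness does not bear on the RNA reads. Whether the transcripts of these genes are alike enough to make their reads uncertain was not tested. The CXCL10 match is the same core on the opposite strand. The letters do not separate the genes higher in U87 from CXCL10, and binding was not measured.

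Receptor tyrosine kinases were split and their ligands leaned towards U87. Of 26 receptors tested, 8 were higher in T98 and 5 were lower, and of 29 ligands, 7 were higher and 13 lower (median log2 difference -1.36). EGFR had 9855 and 3269 in T98 and 2881 and 4741 in U87, so the lines overlapped and it did not pass (adjusted p = 0.387), and PDGFRA had 159 and 1216 in T98 and 124 and 192 in U87 (adjusted p = 0.373). PDGFRB had 7289 and 8505 in T98 and 2683 and 2814 in U87 (log2 difference 1.52 ± 0.16, adjusted p = 0.00048), and EPHA4 had 1597 and 2931 in T98 and 97.2 and 124 in U87 (log2 difference 4.29 ± 0.31, adjusted p = 0.000105). FGFR1 was lower in T98, with 3168 and 2289 in T98 and 14422 and 10331 in U87 (log2 difference -2.18 ± 0.35, adjusted p = 0.0028), and ALK was 218-fold lower in T98, with a 95% counting interval of 38.6 to 8632. Both receptors of the platelet-derived growth factors were read in both lines, while PDGFD was high in T98 alone.

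Among the ligands, those of EGFR were on both sides. TGFA had 18.2 and 25.7 in T98 and 5769 and 5614 in U87 (log2 difference -7.98 ± 0.27, adjusted p = 2.52e-05), and EREG had 25.5 and 9.4 in T98 and 9738 and 25844 in U87 (log2 difference -9.90 ± 0.92, adjusted p = 0.000261), both high in U87. EGF had 804 and 1059.6 in T98 and 43.5 and 155 in U87 (log2 difference 3.47 ± 0.71, adjusted p = 0.00791), higher in T98. VEGFA, the main driver of vessel growth, had 1772 and 1512 in T98 and 26188 and 28036 in U87 (log2 difference -4.05 ± 0.17, adjusted p = 3.86e-05), and EFNB2, the membrane ligand of EPHB receptors, had 103 and 66.4 in T98 and 3081 and 4148 in U87 (log2 difference -5.41 ± 0.34, adjusted p = 7.07e-05). FGF5 was at least 101-fold lower in T98. MDK, the heparin-binding factor midkine, had 5331 and 8156 in T98 and 86.6 and 88.8 in U87 (log2 difference 6.22 ± 0.30, adjusted p = 4.15e-05), while its relative PTN had 772 and 734 in T98 and 2408 and 1826 in U87 (log2 difference -1.48 ± 0.33, adjusted p = 0.0111), a call lost without U87 lane 2 (adjusted p = 0.0653). Midkine and pleiotrophin, which are close relatives, thus differed in opposite directions.

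Extracellular matrix genes were lower in T98 by count, with large exceptions. Of 30 collagens tested, 14 were lower in T98 and 6 were higher (median log2 difference -1.18). COL1A1, the main fibrillar collagen chain, had 626 and 869 in T98 and 29578 and 31131 in U87 (log2 difference -5.36 ± 0.20, adjusted p = 2.97e-05), and COL15A1 had 1.1 and 2.9 in T98 and 1137 and 1264 in U87 (log2 difference -8.72 ± 0.53, adjusted p = 6.2e-05). The paired basement membrane genes COL4A1 and COL4A2 were higher in T98, with 9969.9 and 6829 in T98 and 70.7 and 46.7 in U87 (log2 difference 7.14 ± 0.43, adjusted p = 6.2e-05) and 15986 and 11881 in T98 and 1030.4 and 1068 in U87 (log2 difference 3.71 ± 0.26, adjusted p = 9.24e-05). COL18A1 had 8082 and 8022 in T98 and 77 and 58.2 in U87 (log2 difference 6.89 ± 0.28, adjusted p = 2.97e-05). The X-linked type IV chains went the other way: COL4A5 had 2.2 and 11.5 in T98 and 1267 and 976 in U87 (log2 difference -7.46 ± 0.68, adjusted p = 0.00024) and COL4A6 was 205-fold lower in T98, with a 95% counting interval of 69.7 to 995. Each of these type IV pairs is encoded head to head, and the pairs lay on opposite sides. Of 15 collagen processing enzymes, 7 were lower and none was higher, among them LOX, which cross-links collagen, with 3124 and 7008 in T98 and 25836 and 37156 in U87 (log2 difference -2.73 ± 0.44, adjusted p = 0.00273), and P4HA2, a prolyl hydroxylase, with 2823 and 3742 in T98 and 14062 and 13482 in U87 (log2 difference -2.08 ± 0.21, adjusted p = 0.000345).

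Among laminins and matrix glycoproteins, 13 of 29 were lower in T98 and 5 were higher. SPP1, osteopontin, had 334 and 637 in T98 and 11937 and 14961 in U87 (log2 difference -4.85 ± 0.33, adjusted p = 9.03e-05), and THBS2 had 28.9 and 42.8 in T98 and 863 and 1484 in U87 (log2 difference -4.97 ± 0.38, adjusted p = 0.000124). THBS1 was the reverse of its relative THBS2, with 71475 and 47487 in T98 and 866 and 1339 in U87 (log2 difference 5.76 ± 0.29, adjusted p = 4.34e-05). Without T98 lane 2, 8 members were lower and 3 higher, without U87 lane 2, 9 and 3, and without T98 lane 4, 14 and 3. Integrins were divided, with 4 of 18 higher and 5 lower, or 2 and 4 without U87 lane 2. The fibronectin receptor chain ITGA5 had 4367 and 5215 in T98 and 48523 and 56736 in U87 (log2 difference -3.46 ± 0.21, adjusted p = 6.13e-05), ITGA7 had 21.4 and 28.5 in T98 and 4158 and 1838 in U87 (log2 difference -6.75 ± 0.48, adjusted p = 0.000105), and the laminin receptor chain ITGA6 had 4229.7 and 2655 in T98 and 149.8 and 89.7 in U87 (log2 difference 4.84 ± 0.46, adjusted p = 0.000291). The laminin-binding chains ITGA6 and ITGA7 lay on opposite sides.

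Proteases and their inhibitors were mostly higher in U87. Of 20 matrix metalloproteinases and inhibitors, 11 were lower in T98 and 2 were higher (median log2 difference -1.97). MMP14, which activates other proteases at the membrane, had 2786 and 4989 in T98 and 23066 and 25421 in U87 (log2 difference -2.70 ± 0.29, adjusted p = 0.000513), TIMP1, an inhibitor, had 1816 and 2415 in T98 and 15469 and 14681 in U87 (log2 difference -2.85 ± 0.34, adjusted p = 0.000744), and MMP13, a collagenase, was 313-fold higher in T98, with a 95% counting interval of 107 to 1519. With T98 lane 2 left out, 7 were lower and 1 higher. Of 13 plasminogen activators and SERPINs, 7 were lower in T98 and none was higher. SERPINB2, which blocks plasminogen activators, had 147 and 70.1 in T98 and 1437 and 8601 in U87 (log2 difference -5.10 ± 1.03, adjusted p = 0.00734). PLAUR, the receptor of urokinase, had 625 and 445 in T98 and 4992 and 6776 in U87 (log2 difference -3.46 ± 0.32, adjusted p = 0.000251). The receptor and this inhibitor were thus higher in U87.

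Hypoxia targets were lower in T98 in 14 of 25 and higher in 1, with a median log2 difference of -1.03. Besides VEGFA, CA9, a carbonic anhydrase at the cell surface, had 28 and 273 in T98 and 5329.5 and 7865 in U87 (log2 difference -6.18 ± 1.02, adjusted p = 0.00318), and PFKFB4, a regulator of glycolysis, had 619.5 and 1113 in T98 and 4568 and 4888 in U87 (log2 difference -2.51 ± 0.33, adjusted p = 0.00112). ADM, the vasodilator adrenomedullin, was the 1 higher member, with 6472 and 6916 in T98 and 3312 and 4173 in U87, and its call was lost without T98 lane 2 (adjusted p = 0.073), T98 lane 4 (adjusted p = 0.0853) or U87 lane 2 (adjusted p = 0.121). The count of lower members was 8 without T98 lane 2, 9 without U87 lane 2 and 8 without U87 lane 5. Of 22 genes of glycolysis and lactate transport, 9 were lower in T98 and 2 were higher. ENO2 had 1597 and 1947 in T98 and 11917 and 17849.8 in U87 (log2 difference -3.05 ± 0.25, adjusted p = 0.000166), and SLC2A3, the glucose carrier GLUT3, had 1336 and 1899 in T98 and 8200 and 8859 in U87 (log2 difference -2.42 ± 0.29, adjusted p = 0.000748). Without U87 lane 2, 5 were lower and 1 higher, and without U87 lane 5, 5 were lower and none higher. None was higher with either T98 library left out.

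Genes of sterol and fatty acid synthesis were higher in T98 in 10 of 25 and lower in none, with a median log2 difference of 0.94. FADS2, a fatty acid desaturase, had 15121 and 9121 in T98 and 1268 and 1107 in U87 (log2 difference 3.31 ± 0.38, adjusted p = 0.000621), and FASN, fatty acid synthase, had 20347 and 7643 in T98 and 2025 and 1917 in U87 (log2 difference 2.66 ± 0.49, adjusted p = 0.00487). HMGCS1, an early enzyme of the mevalonate pathway, had 12534 and 5582 in T98 and 2342 and 1871 in U87 (adjusted p = 0.00841). The T98 values of FASN and HMGCS1 were far higher on lane 2 than on lane 4. Without T98 lane 2, 4 members were higher, without U87 lane 2, 5, and without U87 lane 5, 6.

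Targets and partners of YAP, the effector of the Hippo pathway, were higher in T98 in 11 of 24 and lower in 1, with a median log2 difference of 0.83. CYR61, a secreted target, had 45112 and 14450.4 in T98 and 1679.8 and 2451 in U87 (log2 difference 3.65 ± 0.58, adjusted p = 0.00265), AMOTL1 had 3279 and 2648 in T98 and 842 and 928 in U87 (log2 difference 1.74 ± 0.20, adjusted p = 0.000638), and TGFB2 had 3856 and 2589.8 in T98 and 522 and 487 in U87 (log2 difference 2.65 ± 0.22, adjusted p = 0.000179). NT5E, the ectonucleotidase CD73, was the 1 lower member, with 1320.3 and 119 in T98 and 49269.5 and 39759 in U87 (log2 difference -6.79 ± 1.24, adjusted p = 0.00486). Its T98 libraries stood far apart, and both lay below U87. The count of higher members was 6 without T98 lane 2, 6 without U87 lane 2 and 5 without U87 lane 5.

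Morphogen genes differed in both directions. Of 33 genes of TGF-beta and BMP signalling, 8 were higher in T98 and 9 lower. BMP7 had 819.9 and 1736 in T98 and 23.2 and 17.2 in U87 (log2 difference 5.83 ± 0.43, adjusted p = 0.00011), BMP4 was 429-fold higher in T98, with a 95% counting interval of 118 to 3547, and TGFBR1, the type I receptor, had 381 and 476 in T98 and 3131 and 3669 in U87 (log2 difference -2.99 ± 0.20, adjusted p = 9.24e-05). GDF5, of the BMP family, was lower, with 13.8 and 9.5 in T98 and 314 and 412 in U87 (log2 difference -4.86 ± 0.48, adjusted p = 0.000325), and so was the BMP antagonist GREM1. Without T98 lane 4, 4 were higher and 8 lower, and without U87 lane 5, 5 were higher and 7 lower. Of 30 Wnt genes, 11 were higher and 6 lower. WNT5B had 2059 and 1467 in T98 and 159 and 169.9 in U87 (log2 difference 3.39 ± 0.41, adjusted p = 0.000857), WNT7B had 14.8 and 5.6 in T98 and 3584 and 4480.1 in U87 (log2 difference -8.61 ± 0.89, adjusted p = 0.000406), and LRP5, the co-receptor, had 1369.9 and 2037 in T98 and 8.5 and 23 in U87 (log2 difference 6.79 ± 0.51, adjusted p = 0.00012). With T98 lane 2 left out, 10 were higher and 3 lower. Notch genes numbered 12, of which 1 was higher and 1 lower, or 2 and 0 without T98 lane 2, 1 and 0 without U87 lane 2 and 2 and 1 without U87 lane 5.

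Transcription factors that place cells along the body axis and in the neural tube included many that 1 line barely read. In the HOXC cluster, 6 of 7 genes were higher in T98 and none was lower (median log2 difference 2.79), and HOXC10 had 784 and 664 in T98 and 43.2 and 18.1 in U87 (log2 difference 4.64 ± 0.70, adjusted p = 0.00209). Of those 7 HOXC genes, 3 passed the filter through 1 line only, so only 1 side was open to them. In the HOXB cluster 1 of 8 was higher and 3 were lower: HOXB2 was 525-fold lower in T98, with a 95% counting interval of 145 to 4340, and HOXB13, at the other end, had 78 and 215 in T98 and 3.2 and 3.8 in U87 (log2 difference 4.86 ± 0.70, adjusted p = 0.00182). In the HOXA cluster 3 of 8 were higher and 1 lower (2 and 3 without T98 lane 4), with HOXA13 269.6-fold higher in T98, with a 95% counting interval of 48.0 to 10690 and HOXA4 229.5-fold lower in T98, with a 95% counting interval of 40.8 to 9105. Members of 1 cluster thus lay on opposite sides, and the median of the HOXA cluster was -0.08, or 0.20 with quantile normalization. Of 20 neural factors, 9 were higher in T98 and 4 lower, or 8 and 2 with either lane 2 library left out. EN2, of the midbrain, was at least 89.2-fold higher in T98, and PAX8 had 35.1 and 20.8 in T98 and 507 and 769.5 in U87 (log2 difference -4.48 ± 0.58, adjusted p = 0.00114). Of 19 mesenchymal factors, 8 were higher and 5 lower. ALX4 had 2555 and 3287 in T98 and 12.7 and 10.5 in U87 (log2 difference 7.86 ± 0.45, adjusted p = 5.4e-05), while its relative ALX1 was at least 88.5-fold lower in T98. ZEB1 and ZEB2, which repress epithelial genes, were also split: ZEB2 had 428 and 416 in T98 and 3637 and 3526 in U87 (log2 difference -3.08 ± 0.46, adjusted p = 0.00197), and ZEB1 was higher in T98, with 2508 and 2464 in T98 and 939 and 1159 in U87, a call lost without T98 lane 2 (adjusted p = 0.117), T98 lane 4 (adjusted p = 0.096), U87 lane 2 (adjusted p = 0.136) or U87 lane 5 (adjusted p = 0.0626). Without T98 lane 2, 5 mesenchymal factors were higher and 5 lower.

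Imprinted genes, of which 1 parental copy is normally silent, were lower in T98 in 9 of 21 and higher in 3, or higher in 1 with either lane 2 library left out. SNRPN had 3.2 and 2.8 in T98 and 1299.7 and 1974 in U87 (log2 difference -8.64 ± 0.50, adjusted p = 5.77e-05), and it shares its reads with SNURF. NAP1L5 was 567-fold lower in T98, with a 95% counting interval of 194 to 2753, and PLAGL1 had 4.3 and 3.8 in T98 and 1132 and 1557 in U87 (log2 difference -8.05 ± 0.79, adjusted p = 0.000328). All 3 were at or near 0 in T98. IGF2, a growth factor, was the reverse, with 254 and 417 in T98 and 9.6 and 17.2 in U87 (log2 difference 4.56 ± 0.67, adjusted p = 0.00195). Of 21 enzymes of DNA and histone methylation, 10 were higher in T98 and 1 was lower, led by TET1, which oxidises methylcytosine, with 418 and 411 in T98 and 27.6 and 57.4 in U87 (log2 difference 3.35 ± 0.43, adjusted p = 0.00107). With T98 lane 2 left out, 4 of them were higher and none lower, without T98 lane 4, 6 and 1, and without U87 lane 2, 4 and 1.

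Position along the chromosomes showed runs of genes on the same side. Over 13289 windows of 15 neighbouring tested genes, the median of the window medians was 0, and the 1st and 99th percentiles were -1.57 and 1.69. A window median of 2 or more occurred 105 times, 83 of them on chromosome 19, and one under -2 occurred 63 times. Windows overlap, so these are not independent counts. The highest window, at hg19 chr19:52772824-53466164, ran from ZNF766 to ZNF816 and had a median log2 difference of 6.37, with 13 of 15 genes higher in T98 and none lower. A further one at chr19:36705504-37620651, from ZNF146 to ZNF420, had a median of 6.22 with 14 higher. All genes of both windows are zinc finger genes, most of which encode KRAB repressors of transposable elements.

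**Figure D4:**
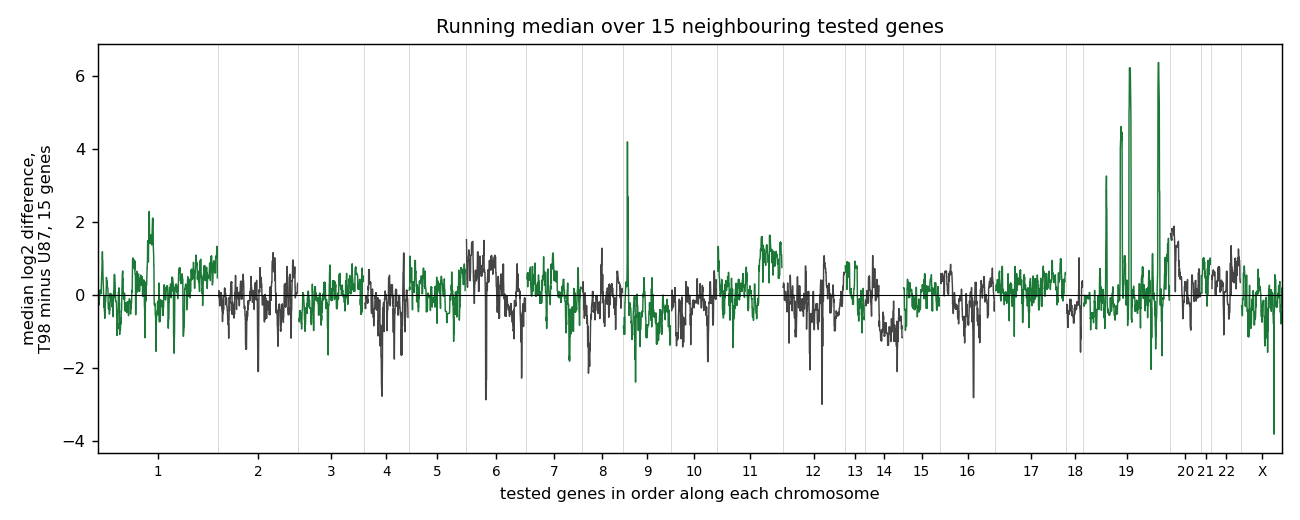
Running median of the log2 difference (T98 minus U87) over 15 neighbouring tested genes, along the order of genes on each chromosome shown. Chromosome 19 has several peaks above 2, and the dips mark runs of genes higher in U87.

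Of the 231 tested genes on chromosome 19 with a zinc finger symbol, 117 (50.6%) were higher in T98 and 9 (3.90%) were lower, with a median log2 difference of 1.24, and 74 were higher by at least 16-fold. Of 263 zinc finger genes on other chromosomes, 65 (24.7%) were higher and 22 (8.37%) lower, and of 763 other genes on chromosome 19, 93 were higher and 170 lower. ZNF83 had 451 and 532 in T98 and 1 and 0 in U87 and was 985-fold higher in T98, with a 95% counting interval of 176 to 38950. ZNF880 had 379 and 297 in T98 and 0 in both U87 libraries and was at least 224-fold higher in T98, and ZNF470 was at least 213-fold higher in T98. These 3 genes, chosen after their values were seen, were read in T98 and at or near 0 in U87. Of the genes with a mean of 200 or more in T98 and values under 10 in U87, 20 were zinc finger genes of chromosome 19, and none of the 177 in U87 was. Neighbouring zinc finger genes share sequence, so single values are uncertain.

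The lowest window median, -3.81, was at chrX:134478696-135863503, with 8 genes lower in T98 and 2 higher, CT45A genes among the 15. At chr12:77252496-85695561 the median was -2.98, with 7 lower and 2 higher. Some other runs higher in U87 held gene families named above. The window at chr4:74301933-76555721 had a median of -2.77, with 12 of 15 genes lower in T98, among them IL8, CXCL1, CXCL2, CXCL3, CXCL5 and EREG. At chr2:113125946-114258727 the median was -2.10 with 11 lower, among them IL1A, IL1B, IL36B, IL36RN and IL1RN. At chr16:55542913-56705041 the median was -2.81 with 8 lower and 2 higher, and this run holds metallothioneins such as MT2A, MT1E and MT1M. MT1E had 208 and 60.6 in T98 and 8105 and 5660 in U87 (log2 difference -5.90 ± 0.77, adjusted p = 0.00114), and MT1M had 5.3 and 1.9 in T98 and 633 and 202 in U87. The class II run at chr6:32116140-32731330 had a median of -2.86. Whole chromosomes differed less: the medians ran from -0.57 on chromosome 14, where 42 of 436 genes were higher and 171 lower, to 0.57 on chromosome 21. Copy number was not measured.

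Promoter composition differed between the genes that 1 line alone read. A window was called CpG-rich where GC was at least 50% and the observed over expected CpG ratio at least 0.6, which held for 73.5% of the 11039 tested genes matched to RefSeq (81.1% of the tested genes listed). The share was 76.9% of 2099 genes higher in T98 and 64.0% of 2167 lower. Among the genes with a mean of 200 or more in 1 line and values under 10 in the other, it was 75.3% of 97 in T98 and 45.6% of 125 in U87. Genes higher in T98 were above those lower at each level of expression, from 54.7% against 38.9% at a mean under 50 to 82.3% against 74.0% at the highest means. These are shares of promoters of the reference sequence, with no test, and methylation was not measured.

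Some markers of the astrocyte lineage were at or near 0 in both lines, and others were read in both. Of 20 on the list, 12 were tested, 5 were lower in T98 and 1 was higher. GFAP, the astrocyte filament, had 2.2 and 8.6 in T98 and 25.4 and 50.7 in U87, low in both, and its call as lower in T98 was lost without T98 lane 2 (adjusted p = 0.12) or U87 lane 5 (adjusted p = 0.113) and with edgeR (adjusted p = 0.0547) and with DESeq2 (adjusted p = 0.0878). SOX2 had 0 in both T98 libraries and 0 and 2.9 in U87, OLIG1 had 0 in both T98 libraries and 0 in both U87 libraries, and AQP4 had 0 and 1 in T98 and 0 and 1 in U87, all below the filter. NES, nestin, had 16.2 and 74.2 in T98 and 1361 and 1903 in U87 (log2 difference -5.49 ± 0.74, adjusted p = 0.00133), and GJA1, connexin 43, had 2061 and 3066 in T98 and 26395 and 15962 in U87 (log2 difference -3.03 ± 0.28, adjusted p = 0.000272). CD44 was high in both lines, with 51903 and 38062 in T98 and 55667 and 53908 in U87 (adjusted p = 0.464). SOX9, a glial transcription factor, was the 1 higher member, with 2016 and 1245 in T98 and 607 and 428 in U87 (log2 difference 1.63 ± 0.37, adjusted p = 0.0111), a call lost without T98 lane 2 (adjusted p = 0.0725) or U87 lane 5 (adjusted p = 0.0554), and SLC1A3, an astrocyte glutamate carrier, had 346 and 260.1 in T98 and 1113 and 810.4 in U87 (adjusted p = 0.00444). Some markers of the list were thus at or near 0 in both lines, while others, VIM, CD44, GJA1, SOX9 and SLC1A3 among them, were read in both. Without T98 lane 2, 3 of the list were lower and none higher. Of 21 markers of the mesenchymal glioma class, 12 were lower in T98 and 2 were higher: CHI3L1 had 36.1 and 18 in T98 and 1618 and 3806 in U87 (log2 difference -6.55 ± 0.70, adjusted p = 0.000478), PDPN, podoplanin, had 2.2 and 7.6 in T98 and 2209.7 and 2048 in U87 (log2 difference -8.66 ± 0.49, adjusted p = 5.36e-05), and STAT3 was higher, with 7780.5 and 7057 in T98 and 3629 and 3273 in U87 (log2 difference 1.10 ± 0.17, adjusted p = 0.00251). Of 9 proneural markers tested, 3 were higher and 2 lower, with SOX11 1721-fold higher in T98, with a 95% counting interval of 308 to 68000 and CSPG4, the NG2 proteoglycan, at 20.2 and 18 in T98 and 8521 and 4711 in U87 (log2 difference -8.30 ± 0.44, adjusted p = 4.48e-05).

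Markers of other cell types were mixed, with some at or near 0 and others read. Of 11 neuronal markers tested, 1 was higher in T98, the microtubule protein MAP2, with 5980 and 4647 in T98 and 391 and 792 in U87 (log2 difference 3.24 ± 0.43, adjusted p = 0.00126), and 6 were lower. The 6 were 3 without U87 lane 2 and 3 without U87 lane 5, and RBFOX3, which defines neurons, had 1.1 and 3.8 in T98 and 7.4 and 7.6 in U87, whereas SNAP25, of synaptic vesicle release, had 85.5 and 288 in T98 and 778 and 576 in U87. For pericytes and fibroblasts, 2 of 14 were higher and 5 lower, with THY1 at 4795 and 7045 in T98 and 72.6 and 6.5 in U87 (log2 difference 7.95 ± 1.22, adjusted p = 0.00227) and FAP at 64.1 and 145 in T98 and 1322 and 828 in U87 (log2 difference -3.42 ± 0.44, adjusted p = 0.00101). The 5 were 3 without T98 lane 2 and 2 without U87 lane 2. For microglia and macrophages, 1 of 5 was higher (0 without T98 lane 4) and 2 lower, and the summed level of the list was 844 to 1315 in T98 and 12420 to 20390 in U87. CD68, a lysosomal protein not limited to macrophages, held most of that sum, with 708 and 1125 in T98 and 12019.8 and 19484 in U87 (log2 difference -4.10 ± 0.37, adjusted p = 0.000222), while PTPRC, which defines leukocytes, had 3.2 and 2.8 in T98 and 0.1 and 9.6 in U87. AIF1 and TYROBP, which define microglia, had 1 and 3 reads in the 4 libraries together, whereas CSF1R, the receptor of CSF1, had 7.5 and 15.2 in T98 and 339 and 812 in U87. For epithelium, 2 of 4 were higher and 1 lower, and the sum was 2663 to 3154 in T98 and 262 to 296 in U87. KRT18, a keratin of simple epithelium, held most of it, with 2700.1 and 2190.2 in T98 and 29.6 and 31.5 in U87 (log2 difference 6.27 ± 0.35, adjusted p = 5.05e-05), and CDH1 had 1.1 and 2.9 in T98 and 6.3 and 3.8 in U87. For endothelium 1 of 7 was higher and 2 lower (0 and 1 without T98 lane 2 or U87 lane 5), and for oligodendrocytes 1 of 3 was higher (0 without T98 lane 4, U87 lane 2 or U87 lane 5) and none lower, with MOG, of myelin, at 0 in both T98 libraries and 0 in both U87 libraries. These are pure line cultures by label, and the part of other cells in any difference was not tested.

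In the remaining lists, calls were few or split. Of 29 respiratory chain subunits, 1 was higher and 2 lower (0 lower with either lane 2 library left out), and of 32 cytosolic ribosomal proteins, 5 were higher and none lower. The ribosomal count was 3 without T98 lane 2 and 3 without U87 lane 5. Of 19 genes of the PI3K pathway, 1 was higher and 4 lower. Leaving out 1 library at a time gave 0 to 2 higher and 1 to 4 lower, with the lowest count without U87 lane 5. PIK3CD had 460.4 and 351 in T98 and 2239 and 2872 in U87 (log2 difference -2.65 ± 0.27, adjusted p = 0.000349). Of 34 clustered protocadherins, none was higher and 1 was lower, with a median log2 difference of -0.51, and 13 were lower without U87 lane 5. Of 17 complement genes, 3 were higher and 4 lower, and C1S had 9791 and 13226 in T98 and 3790.1 and 3659 in U87 (log2 difference 1.61 ± 0.21, adjusted p = 0.00117) while CLU had 6523 and 5442 in T98 and 26445 and 25599.5 in U87 (log2 difference -2.13 ± 0.29, adjusted p = 0.00148). With T98 lane 2 left out, 5 complement genes were higher and 4 lower. Of 12 classical cadherins, 3 were higher and 4 lower, or 3 and 2 without T98 lane 2 and 3 and 1 without U87 lane 2, and CDH11 had 4027 and 4226 in T98 and 538 and 256 in U87 (log2 difference 3.47 ± 0.34, adjusted p = 0.000299). Of 12 cancer testis antigens, none was higher and 3 were lower, or 1 lower without T98 lane 2 and 1 without T98 lane 4. In the HOXD cluster, 2 of 8 genes were higher and none lower, or 1 higher without any 1 of the 4 control libraries and, without U87 lane 5, 1 lower.

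**Figure D5:**
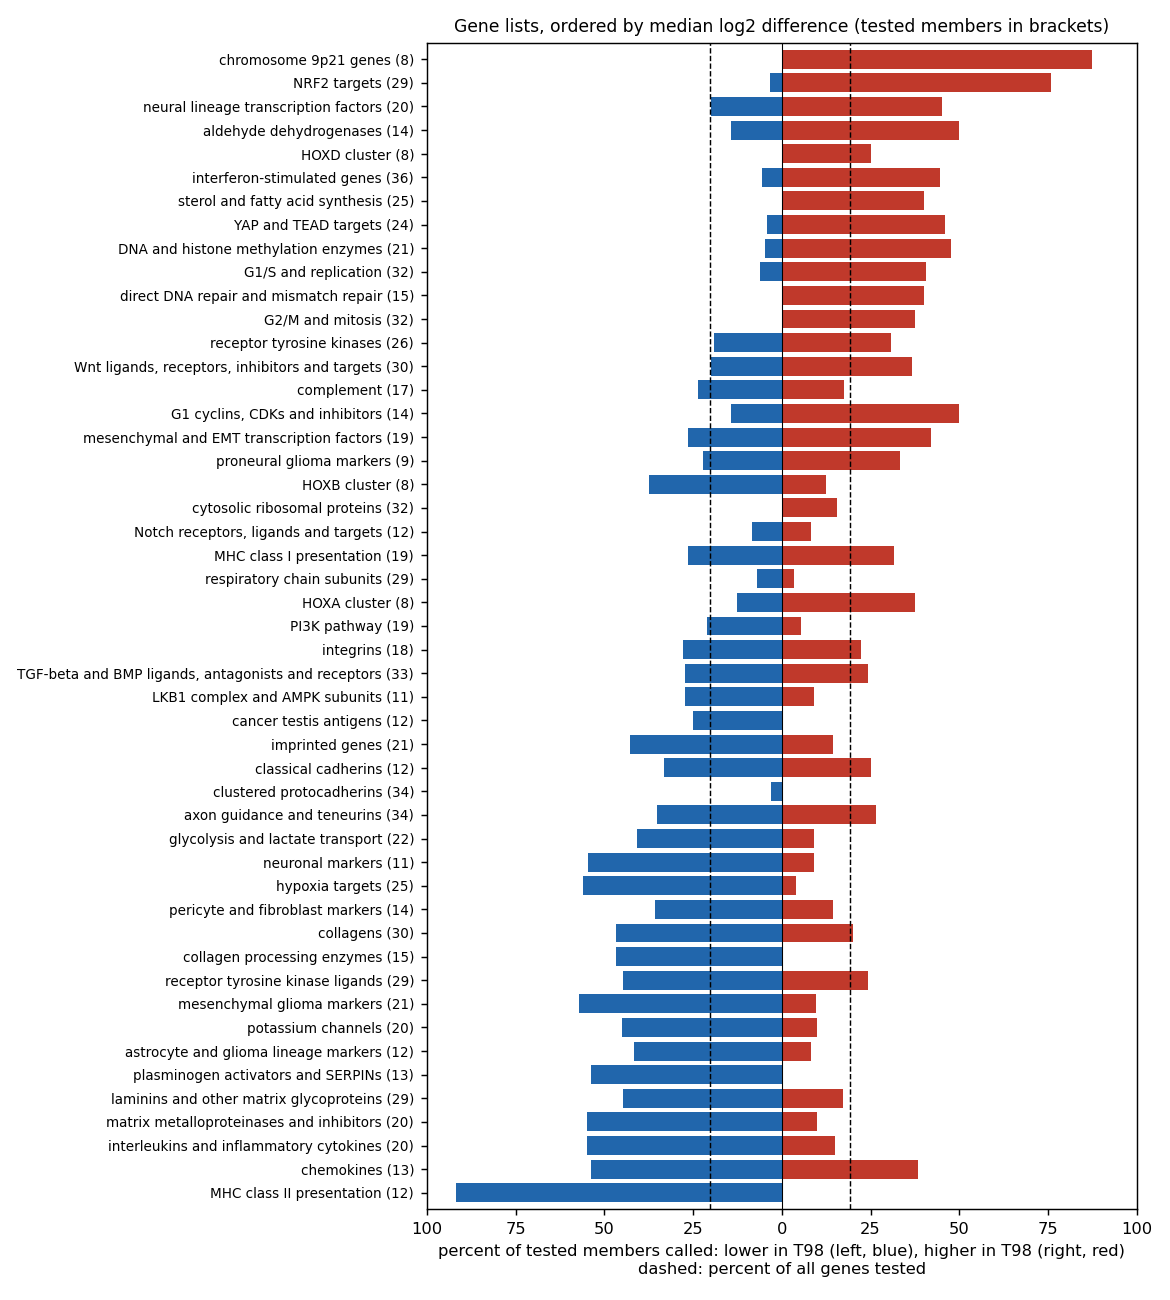
Share of the tested members of gene lists with at least 8 tested genes that were higher (red, to the right) or lower (blue, to the left) in T98, in percent, with the shares of all genes tested, 19.1% and 20.2%, as reference. NRF2 targets and the 9p21 genes lie far on the right, and MHC class II genes far on the left. Of the 8 genes of 9p21, 7 passed the filter only through their T98 values.

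Axon guidance genes and potassium channels, both best known from neurons, were also divided. Of 34 axon guidance and teneurin genes, 9 were higher in T98 and 12 lower. SLIT2, a repellent ligand, had 2148 and 1351 in T98 and 10.7 and 31.6 in U87 (log2 difference 6.45 ± 0.59, adjusted p = 0.000242), and its relative SLIT3 had 8.5 and 7.6 in T98 and 1579 and 682 in U87 (log2 difference -6.84 ± 0.56, adjusted p = 0.00016). The SLIT genes thus lay on opposite sides. Neuropilin 2, NRP2, had 1302 and 659 in T98 and 12151 and 14101 in U87 (log2 difference -3.82 ± 0.37, adjusted p = 0.000319). Of 20 potassium channel genes, 2 were higher and 9 lower, or 1 and 7 without T98 lane 2 and 1 and 8 without T98 lane 4. KCNN4, the calcium-gated channel KCa3.1, had 250.5 and 269 in T98 and 2324 and 1956 in U87 (log2 difference -3.03 ± 0.24, adjusted p = 0.000142), and KCNK1 was at least 128-fold higher in T98.

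LKB1 itself, the kinase silenced in the other libraries, did not pass between the lines. STK11 had 1999 and 2041 in T98 and 2445 and 2041 in U87 under control siRNA and did not pass (log2 difference -0.14 ± 0.28, adjusted p = 0.709). Of 11 genes of the LKB1 complex and AMPK tested, 1 was higher in T98 and 3 were lower, or 0 and 2 without T98 lane 2, T98 lane 4 or U87 lane 5 and 1 and 1 without U87 lane 2. PRKAA2, an AMPK catalytic subunit, had 40.6 and 84.6 in T98 and 266 and 765 in U87, and its call was lost without T98 lane 2 (adjusted p = 0.0807) or U87 lane 5 (adjusted p = 0.0674). STRADB, the pseudokinase partner, had 784 and 722 in T98 and 2099 and 1459.6 in U87, and its call was lost without U87 lane 2 (adjusted p = 0.0682).

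Under LKB1 siRNA, in 4 other libraries, 3017 genes (22.1%) were higher in T98 and 2923 (21.4%) were lower. Of the 5361 genes that differed under control siRNA, 5347 (99.7%) had the same sign there and 4680 (87.3%) also passed in the same direction. The differences under the 2 siRNAs share no library, though they share lanes and the estimate of spread, and across genes, which are not independent replicates, they correlated at a Pearson coefficient of 0.967. In the test of whether the difference between the lines depended on the siRNA, 0 genes passed with limma, and 372 had an unadjusted p under 0.05. With a lane term within each line, 60 genes passed in 1 direction and 17 in the other. CDKN1A under LKB1 siRNA had 1223 and 1697 in T98 and 25738 and 32069 in U87, CD74 had 53.6 and 52.1 in T98 and 17087 and 10223 in U87 and GCLM had 10833 and 10977 in T98 and 1724 and 1378 in U87, each on the same side as under control siRNA.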

How the data were processed

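The authors prepared RNA-seq libraries (TruSeq RNA V2) from T98 and U87 cells 72 h after siRNA transfection, per the labels' protocols, and the submitters' processing notes name TopHat2 2.0.8b, edgeR and hg19 (GRCh37). Per the file headers, the deposited table has a row for each RefSeq transcript and a normalised signal for each library. Inverting edgeR's pseudo-count adjustment at its common dispersion gave whole reads for 100% of the values (tolerance 0.05), so the deposited signal was taken as such pseudo-counts, which draw libraries to 1 size and can give small values such as 0.1 where no read was counted. No other sample columns were used or found.

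One row was kept per symbol. limma-trend (limma 3.58.1, R 4.3.3) was fitted to log2(value + 1) of all 8 libraries with 4 group means and 4 residual degrees of freedom, two-sided, with a threshold of 0.05 on the Benjamini-Hochberg adjusted p. The filter and the fold bounds are given in the report, and the script was tested on simulated data. edgeR 4.0.16 (quasi-likelihood) and DESeq2 1.42.0 were run as alternatives on the whole reads of the 4 control libraries. Other alternatives changed the pseudocount, filter, scaling and lane terms, or left out a library.

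Genes were named by rule: the 15 largest differences in each direction among genes past the threshold with a mean of at least 200 in the higher line and no provisional symbol, up to 4 members in each direction per list by adjusted p, members that complete a family, and the 10 highest transcripts per line. The single zinc finger and metallothionein genes were named after their values were seen. The comparison, the 55 gene lists and their members were chosen with earlier results of these data known. Lists are described by counts and medians, with no test. Promoter windows are RefSeq's, on GRCh38.p14. Y-linked genes and XIST, and results on some other genes and 1 gene list, are not reported here. Replicates carry no number in the labels, so none were paired. Counting intervals and bounds cover counting error only, since reads carried no molecular identifiers.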

Additional observations from a re-analysis of the deposited data

How the results depend on the processing

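All 5361 genes that passed kept their sign under the control libraries alone, the lane terms, edgeR, DESeq2 and each control library left out. The sign could not change with the control libraries alone or a lane 2 term shared by both lines, which leave the difference of group means as it was. Nor could it with 1 control library left out, since the libraries of the lines did not overlap in these genes. In the opposite direction, 0 passed with the control libraries alone, the lane terms, edgeR or DESeq2. With edgeR's quasi-likelihood test 4396 of them also passed and with DESeq2 4866. Leaving out 1 library at a time gave 1491 to 2591 genes higher in T98 and 1735 to 2795 lower, and the lowest counts, both without the T98 lane 2 library, left 3136 of the 5361. A lane term within each line, which gives the fitted difference on lane 2 from all libraries, gave 4317 higher and 4475 lower. For the difference between the siRNAs it gave 60 positive and 17 negative genes. A test against a fold of 2 gave 768 higher and 1066 lower; it asks for more than a difference from 0. Of 342 named genes, 107 no longer passed that test, 57 without T98 lane 2, 49 without U87 lane 2, 35 without a filter on low values, 24 with edgeR and 10 with DESeq2. The labels carry no replicate numbers, so libraries were not paired by number, and the lane terms are the blocks that were fitted. Each group has 2 libraries, the lines share only lane 2, and low genes rest on few reads. Apart from the lane and library effects given, the cause of these changes was not tested.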
